A study of Homo sapiens with 32 samples.

Results

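IGF1R, the receptor for insulin-like growth factors, and IRS1, the adaptor protein that carries its signal, were followed in ZR-75-1 xenografts over 14 days of tamoxifen. ZR-75-1 is an estrogen receptor-positive human breast cancer cell line, and the tumors were grown in female nu/nu mice, a strain without a thymus and therefore without mature T cells. The members were all probes that the study's list of named genes gives as IGF1R or IRS1: 3 probes of 2 genes, among 333 named probes of 253 genes and 9912 probes in all. IGF1R had 1 probe (35996_A) and IRS1 had 2 (773110_A and 796284_A).

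When IGF-1 or IGF-2 binds the receptor on the cell surface, the receptor's kinase phosphorylates IRS1 on tyrosines, and phosphorylated IRS1 recruits PI3-kinase and so switches on AKT. A second branch leads through SHC and GRB2 to RAS and the MAP kinases. In estrogen receptor-positive breast cancer cells, estrogen is known to raise the levels of both IGF1R and IRS1, and the IGFBPs, secreted proteins that bind the growth factors, set how much ligand reaches the receptor.

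Every mouse received estradiol (E2). The treated mice also received tamoxifen as a 2.5 mg dose given off over 60 days, and tumors were taken on day 1 (4 tumors of 2 mice), day 2 (2 tumors of 2 mice), day 4 (4 tumors of 3 mice), day 7 (4 tumors of 3 mice) and day 14 (2 tumors of 2 mice). Each of the 16 tumors was set against 1 pool of E2-only xenografts collected from day 0 to day 4, on 2-colour cDNA arrays, once in each dye orientation. The pool is a single control sample, so its own spread is not in any test, and it holds no xenograft of day 7 or day 14: at those days the effect of tamoxifen and that of time on E2 cannot be told apart. The pool cancels in differences between days, but the time on E2 does not, so tamoxifen and time cannot be told apart in them either.

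All values are log2 ratios of tumor over pool after background correction and normalization, averaged over the dye orientations of a tumor, and 0 means the level of the pool. The scanner files do not say which dye a channel holds. The sign used is the one that the authors' own table of values carries, whereas the dye labels taken literally would turn every sign below; the study's protein stains of TFF3 and IGFBP5 run in the direction used. Of the 32 arrays, 1 was left out because its ratios followed another tumor's array (r = 0.880 over all probes), so that day 4 replicate 3 rests on its forward array alone. The median spot lay between 2.77 and 7.92 times over its local background on the 32 arrays, and the number of arrays limits the precision. The member spots ranged from 2.17 to 32.6 times over background, with medians of 13.1 for IGF1R, 6.37 for IRS1 773110_A and 10.4 for IRS1 796284_A, and no member spot carried the scanner's ignore mark. A tumor extract mixes all its cells, so fewer cells that make a transcript and less transcript per cell cannot be told apart, and cross-hybridization of mouse RNA was not tested.

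IGF1R lies on chromosome 15, from 98648539 to 98964530 on the forward strand of GRCh38.p14, and IRS1 on chromosome 2, from 226731312 to 226799820 on the reverse strand. The antisense gene IRAIN (98645863 to 98650787) overlaps the start of IGF1R. Where in each gene the cDNA clones lie, and hence whether they are exonic or in a UTR, is not given in the sources used here. The values of both genes varied together over the tumors, as did those of other named genes whose promoters are not shown. For IGF1R and IRS1 the sequences 250 bases upstream of each start site are shown, and their part in the values was not tested. They come from RefSeq, are written 5′ to 3′ along the gene, and carry the GC box GGGCGG (the core of the site bound by SP1) in capitals. The IGF1R window is chr15:98648289-98648538 on the forward strand and the IRS1 window chr2:226799821-226800070 on the reverse strand.
IGF1R: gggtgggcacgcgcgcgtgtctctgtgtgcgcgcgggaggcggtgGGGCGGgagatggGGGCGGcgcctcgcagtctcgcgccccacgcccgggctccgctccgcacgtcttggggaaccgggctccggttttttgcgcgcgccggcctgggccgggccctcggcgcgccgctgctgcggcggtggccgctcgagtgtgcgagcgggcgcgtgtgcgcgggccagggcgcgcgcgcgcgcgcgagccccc
IRS1: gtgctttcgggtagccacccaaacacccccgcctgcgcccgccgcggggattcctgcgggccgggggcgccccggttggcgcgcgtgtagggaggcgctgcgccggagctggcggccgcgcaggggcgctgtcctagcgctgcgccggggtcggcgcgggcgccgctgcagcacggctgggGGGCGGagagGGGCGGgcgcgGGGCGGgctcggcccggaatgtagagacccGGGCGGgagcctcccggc
Both windows were rich in G and C. IGF1R had 81.2% GC and 48 CpG dinucleotides, IRS1 80.8% and 39, against medians of 58% and 11 over 35114 promoters. The GC box was searched on both strands (GGGCGG and CCGCCC) and matched 2 times upstream of IGF1R and 4 times upstream of IRS1; 42.6% of all promoters held at least 1 match, 24.3% held 2 or more and 7.63% held 4 or more. Neither window held the full estrogen response element GGTCANNNTGACC, which is its own reverse complement and occurred in 0.0399% of promoters, a single arm of that element (GGTCA or TGACC), which occurred in 32.7% and also counts the arms of full elements, or the TATA box TATAAA or TTTATA, which occurred in 10.7%. These are matches of letters in one window and say nothing of whether a factor binds there or elsewhere.

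IGF1R was near the level of the pool from day 1 to day 7 and lower on day 14. The day 1 tumors gave log2 ratios of -0.17, 0.07, -0.22 and -0.34 for replicates 1 to 4, and the day 2 tumors -0.05 and -0.45. On day 4 the values were -0.46, 0.03, 0.33 and -0.0018 for replicates 1, 2, 3 and 5, and on day 7 they were 0.31, -0.16, -0.07 and -0.30. Of these 14 tumors, 10 lay below the pool and 4 above, and the days overlapped throughout. On day 14 the values were -0.50 and -0.94, both below the lowest earlier tumor, day 4 replicate 1.

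The day 14 mean of IGF1R was -0.72 ± 0.31 (SD, n = 2), which is 60.6% of the pool or 1.65-fold lower, with a fitted 95% interval from -1.09 to -0.35 (limma, adjusted p = 0.0188). Across the series, 2.95% of the 9912 probes were called lower on day 14, and 6.27% were called in either direction. The probes carry these names because the study listed them for their change on these same arrays, so neither this test nor those of IRS1 against the pool are independent evidence of a direction. The call rested on both tumors: with day 14 replicate 1 alone the ratio was -0.50 (limma, adjusted p = 0.452), and with replicate 2 alone it was -0.94 (adjusted p = 0.0665).

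**Figure D1:**
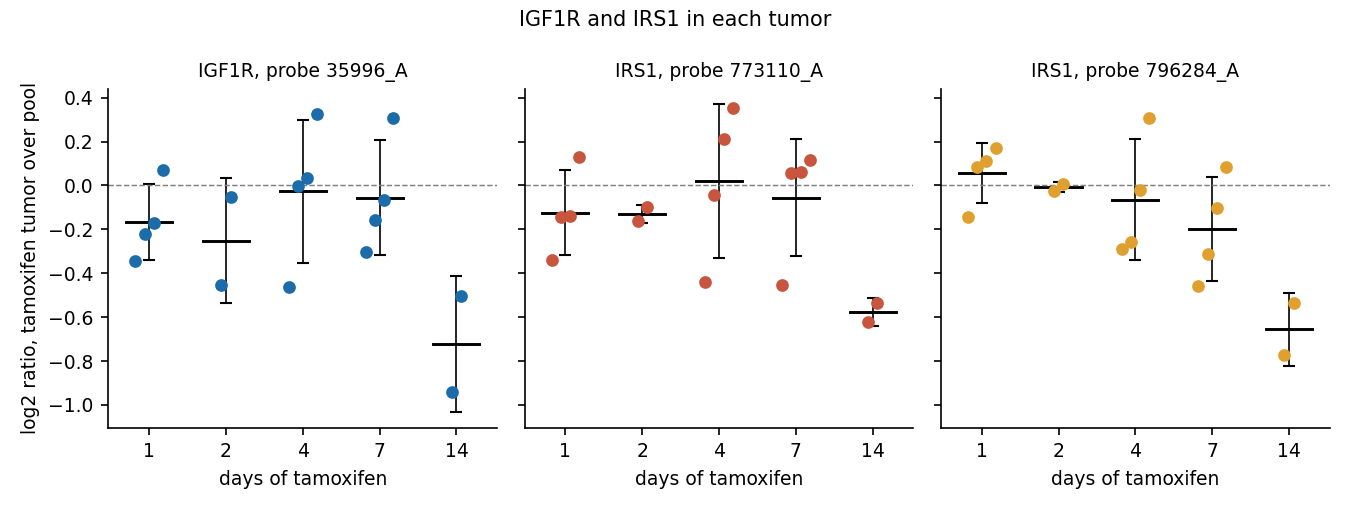
Log2 ratio of tamoxifen-treated tumor over the E2-only pool (vertical axis) against days of tamoxifen (horizontal axis) for the 3 probes; each point is 1 tumor, the bar is the mean and the whisker 1 SD, with n = 4, 2, 4, 4 and 2 tumors. For IGF1R and both IRS1 probes the 2 tumors of day 14 lie below all 14 earlier tumors, which scatter around 0.

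IRS1 gave the same picture in both probes. In probe 773110_A the day 1 tumors read -0.14, 0.13, -0.14 and -0.34 and the day 2 tumors -0.10 and -0.16. The day 4 tumors read -0.44, 0.21, 0.35 and -0.04 (replicates 1, 2, 3 and 5), and the day 7 tumors 0.06, -0.45, 0.05 and 0.11. The day 14 tumors read -0.62 and -0.53, again below every earlier tumor. The lowest earlier tumor was day 7 replicate 2, also the extreme of its day in some other genes. Without it the step from day 7 to day 14 in this probe was -0.66 (limma, adjusted p = 0.231). The day 14 mean was -0.58 ± 0.06 (SD, n = 2), 67.0% of the pool or 1.49-fold lower, with an interval from -0.93 to -0.22 (limma, adjusted p = 0.0492).

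That last call was a close one. It was lost in 19 of 35 alternative settings, among them 11 of the 16 that leave out 1 tumor, with adjusted p (limma) up to 0.423 when day 14 replicate 1 was left out and 0.316 when replicate 2 was. The value itself stayed below 0 in all 35, between -0.81 and -0.35.

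In IRS1 probe 796284_A the day 1 tumors read 0.17, 0.11, 0.09 and -0.14 and the day 2 tumors -0.025 and 0.0070. The day 4 tumors read -0.29, -0.26, 0.31 and -0.019, and the day 7 tumors 0.08, -0.31, -0.10 and -0.46. Day 14 gave -0.77 and -0.54, below the lowest earlier tumor, day 7 replicate 4. The day 14 mean was -0.65 ± 0.17 (SD, n = 2), 63.5% of the pool or 1.57-fold lower, with an interval from -0.97 to -0.34 (limma, adjusted p = 0.0126). Without day 14 replicate 1 the ratio was -0.54 (limma, adjusted p = 0.308) and without replicate 2 it was -0.77 (adjusted p = 0.125).

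**Figure D2:**
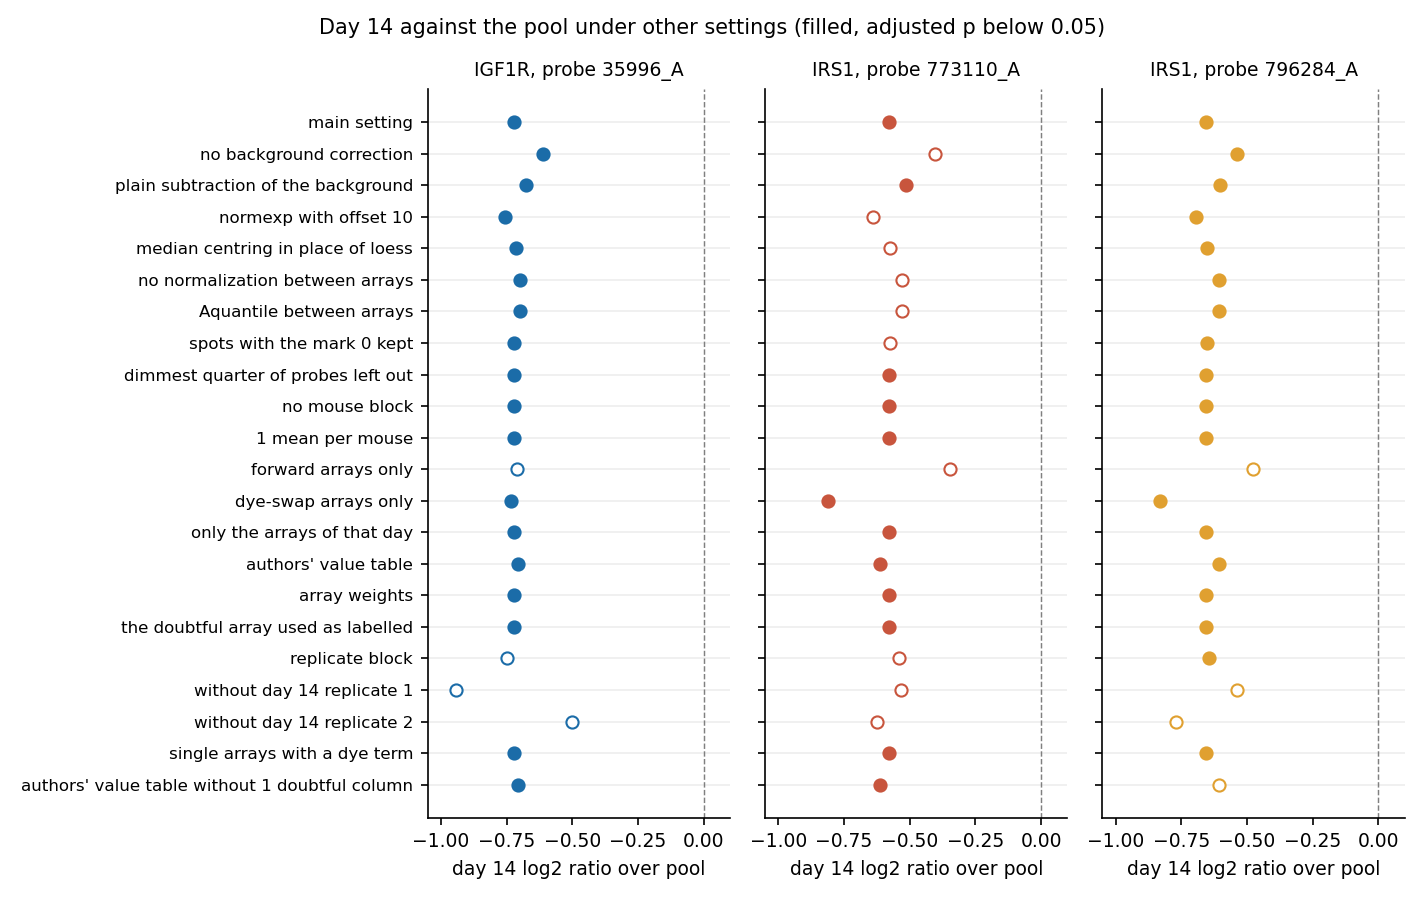
Log2 ratio over the pool on day 14 (horizontal axis) of the 3 probes under the main setting and each alternative (vertical axis), except those that leave out 1 earlier tumor; filled points have a limma adjusted p below 0.05. All points lie left of 0; IRS1 773110_A is the probe with the most open points, and none is filled with only 1 tumor of day 14.

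No member was called on day 1, 2, 4 or 7. The means ran from -0.25 (IGF1R, day 2) to 0.06 (IRS1 796284_A, day 1), with adjusted p (limma) between 0.490 and 0.985, while 6.60%, 0.777%, 1.07% and 0.736% of all probes were called in either direction on those days. The 95% intervals allow changes of some size at these numbers: on day 1 that of IGF1R reached from -0.43 to 0.10, and on day 7 that of IRS1 796284_A from -0.42 to 0.03. A pattern of this kind, called lower on day 14 and on no other day, was found in 1.53% of all probes.

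In the order of the daily means, day 14 was lowest for each of the 3 probes. For IGF1R and IRS1 773110_A the order above it was day 2, day 1, day 7 and day 4, and for IRS1 796284_A it was day 7, day 4, day 2 and day 1. The ranges of those 4 days overlapped for every probe, and no pair of days next to each other in time passed the test of its difference. The step from day 7 to day 14 was -0.67 for IGF1R (SE 0.22; limma, adjusted p = 0.355), -0.52 for IRS1 773110_A (SE 0.21; adjusted p = 0.497) and -0.46 for IRS1 796284_A (SE 0.18; adjusted p = 0.497), and 0.0807% of probes passed there, while 3.59% were lower at an unadjusted p under 0.05, these 3 among them. The earlier steps were smaller, between -0.13 (IRS1 796284_A, day 4 to day 7) and 0.23 (IGF1R, day 2 to day 4), with adjusted p of at least 0.903.

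Against the mean of the 4 earlier days, in which the pool cancels but time on E2 does not, day 14 was lower by -0.60 for IGF1R (interval -0.997 to -0.20; limma, unadjusted p = 0.00556, adjusted p = 0.193). The differences were -0.51 for IRS1 773110_A (interval -0.89 to -0.13; unadjusted p = 0.0121, adjusted p = 0.265) and -0.60 for IRS1 796284_A (interval -0.94 to -0.27; unadjusted p = 0.00146, adjusted p = 0.127). None passed after adjustment over 9912 probes, of which 0.343% did; at an unadjusted p under 0.05 all 3 were lower, as were 5.59% of all probes. In all 3 probes both day 14 tumors lay below all 14 earlier tumors, as in 2.32% of the 9865 probes measured in every tumor. This ordering and the differences between days come from the arrays on which the study chose the probes, and are no independent support either. The F-test over the 5 days gave adjusted p = 0.488 for IGF1R, 0.565 for IRS1 773110_A and 0.394 for IRS1 796284_A (limma).

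The IRS1 values depended on the dye orientation more than those of IGF1R, on average. A forward array and a dye-swap array of one tumor should give the same turned ratio. Over all probes they agreed little, with a mean r of 0.055 (-0.285 to 0.465) over the 15 tumors with both. Over the named probes the mean r was 0.673. Gaps between orientations were thus not particular to IRS1. In these 15 tumors the forward ratio was higher by 0.44 on average in IRS1 773110_A (14 of 15 tumors) and by 0.31 in IRS1 796284_A (13 of 15), against 0.15 in IGF1R (10 of 15). The widest gap was that of IRS1 796284_A in day 7 replicate 4, with 0.12 forward and -1.04 swapped. In IGF1R the widest was in day 2 replicate 2, with -0.06 forward and -0.85 swapped. The orientations had the same sign in 10 of 15 tumors for IGF1R, 9 for IRS1 773110_A and 6 for IRS1 796284_A. Day 4 replicate 3, which has a forward array only, gave the highest value of all 16 tumors in each of the 3 probes.

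On day 14 the 4 arrays lay below 0 for every probe. IGF1R read -0.44 forward and -0.56 swapped in replicate 1, and -0.98 and -0.91 in replicate 2. IRS1 773110_A read -0.31 and -0.93 in replicate 1, and -0.38 and -0.69 in replicate 2. IRS1 796284_A read -0.73 and -0.81, then -0.23 and -0.85. In these 4 arrays, though not in all earlier tumors, IGF1R was therefore much the same in both orientations, while the size of the IRS1 change was not. From forward arrays alone the day 14 ratios of the IRS1 probes were -0.35 and -0.48 (limma, adjusted p = 0.348 and 0.135), and from dye-swap arrays alone they were -0.81 and -0.83 (adjusted p = 0.0215 and 0.0170). An average over balanced orientations cancels a constant dye effect, and every day 14 tumor had both.

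**Figure D3:**
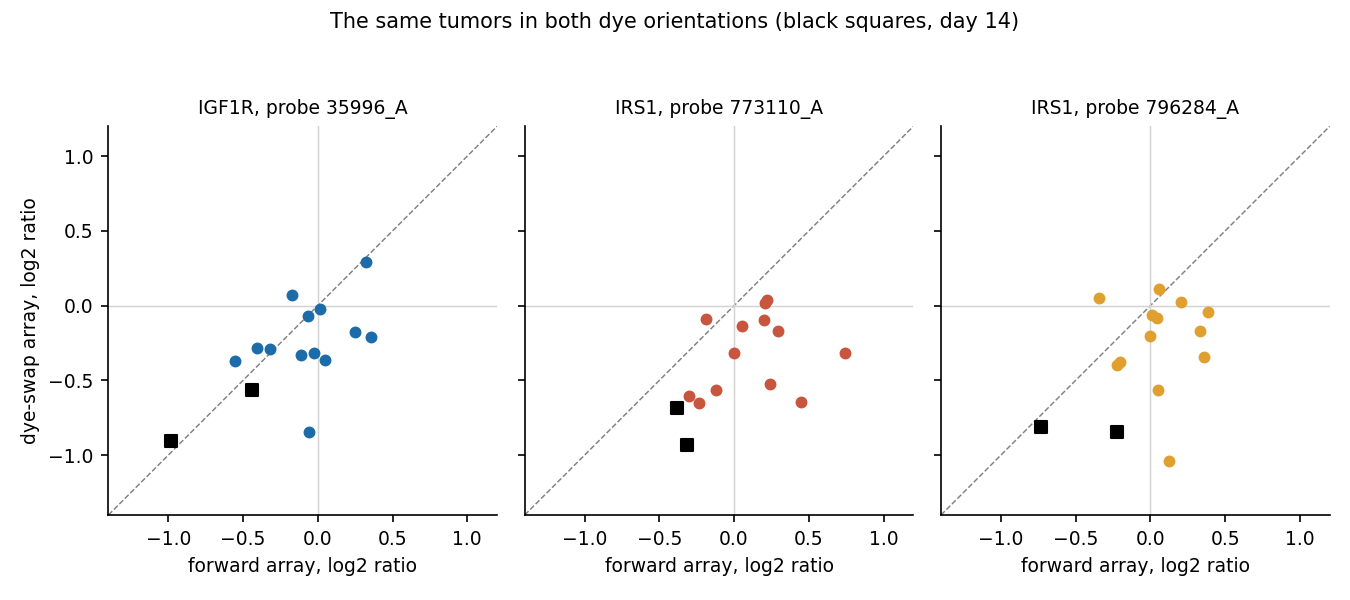
Log2 ratio over the pool on the dye-swap array (vertical axis) against the forward array (horizontal axis) of the same tumor, for 15 tumors; the dashed line marks equal values and black squares are the 2 tumors of day 14. IGF1R scatters on both sides of the line, whereas 14 of 15 tumors of IRS1 773110_A and 13 of 15 of IRS1 796284_A lie below it; all day 14 tumors lie below 0 on both axes.

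The probes listed as IRS1 were read in the same tumors and differed by 0.24 (SD over 16 tumors) around a mean difference of 0.01. The difference, 773110_A minus 796284_A, ran from -0.32 in day 1 replicate 1 to 0.57 in day 7 replicate 4. This spread holds the variation of both probes, and is as wide as that of either probe over the 14 earlier tumors (SD 0.24 and 0.21). Values of IRS1 in single tumors before day 14 thus spread about as far as the gap between its own probes. The probes still varied together in part, with r = 0.514 after removing the mean of each day and 0.372 without day 14. The day 14 means of -0.58 and -0.65 were larger than this spread.

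IGF1R and the mean of the IRS1 probes varied together over the 16 tumors (Pearson r = 0.813, Spearman rho = 0.847). Without the 2 tumors farthest from the median of IGF1R r was 0.710, without day 14 it was 0.757 over 14 tumors, and after removing the mean of each day it was 0.714. The IRS1 probes correlated less with each other (r = 0.648, and 0.372 without day 14) than IGF1R did with either. IGF1R gave r = 0.788 with IRS1 773110_A (0.711 without day 14) and 0.689 with IRS1 796284_A (0.534 without day 14). These are descriptions: all ratios share the 1 pool, and values of one array share its hybridization and normalization.

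Over all 16 tumors some other named genes correlated with IGF1R about as highly as IRS1 did, and some correlated with IRS1 more highly than IGF1R did. All correlations named below were weaker without day 14, as was that of IGF1R with IRS1. For IGF1R the highest correlations over the 16 tumors were with ATP5D, a subunit of mitochondrial ATP synthase (r = 0.804), TFF1, a secreted trefoil factor and classical estrogen target (0.796), MGP, matrix Gla protein (0.776), MAPT, the microtubule protein tau (0.766), and CELSR2, a cadherin (0.740). Without day 14 these were 0.632, 0.616, 0.489, 0.516 and 0.592, in the same order, against 0.757 for IGF1R with the mean of the IRS1 probes. Each of these genes was read from 1 probe, and was chosen by its correlation over all 16 tumors. With single IRS1 probes IGF1R gave 0.711 (773110_A) and 0.534 (796284_A) without day 14, the latter below ATP5D, TFF1 and CELSR2. The lowest correlations of IGF1R over the 16 tumors were with LIMK2, a kinase that acts on cofilin (-0.779), and C20orf3 (-0.799). For IRS1 the closest of all probes was MPP2, a membrane-associated scaffold protein (r = 0.911), followed among named genes by CA8, a protein related to carbonic anhydrases (0.842), GFRA1, the co-receptor for the growth factor GDNF (0.817), MAPT (0.803) and TFF3 (0.795). Without day 14 MPP2 stood at 0.797, and CA8, GFRA1, MAPT and TFF3 at 0.646, 0.593, 0.536 and 0.617, against 0.757 for IGF1R. At the other end stood ITGB5, an integrin (-0.857), and CD9, a tetraspanin (-0.879). The genes named with a positive correlation read between -2.53 (GFRA1) and -0.79 (MPP2) on day 14, all further from the pool than IGF1R and IRS1.

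The study's clustering put IGF1R and IRS1 in one group of 25 probes and 19 genes, a group built from these arrays. On day 14 all of its probes lay below the pool, from -1.87 (RAB31, a small GTPase of vesicle traffic) to -0.50 (GPI, a glycolytic enzyme), with a median of -0.86, and 19 of 25 were called lower (2.95% of all probes). IGF1R ranked 19th of 25 from the lowest, and the IRS1 probes 21st and 23rd. Before day 14 the members were among the steadiest of the group: their SDs over the 14 earlier tumors were 0.25, 0.24 and 0.21, against a median of 0.39 and a highest value of 1.10 (RAB31). FOS, an immediate-early transcription factor with 3 probes in the group, had SDs of 0.57 to 0.80 and day 14 ratios of -1.76 to -1.12. In 12 of the 25 probes both day 14 tumors lay below all earlier ones (2.32% of all probes measured in every tumor). As the group was clustered on these arrays, nothing is read from these shares.

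**Figure D4:**
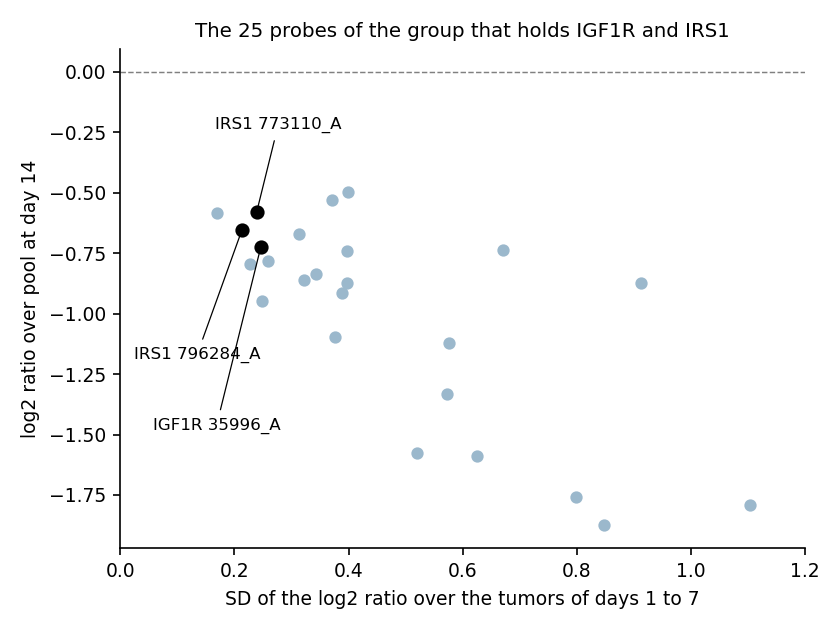
Mean log2 ratio over the pool on day 14 (vertical axis) against the SD over the 14 tumors of days 1 to 7 (horizontal axis) for the 25 probes that the study's clustering placed with IGF1R and IRS1; black points are the 3 member probes. The members sit at small day 14 changes (-0.72 to -0.58) and small earlier spread (0.21 to 0.25).

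Of 54 genes on a list of insulin and IGF signalling, 8 carried a named probe, including IGF1R and IRS1. A named probe is by construction one that changed, and the ligands, IRS2, PI3-kinase and AKT were not among them, so the others on the list were not analysed here. On day 14, 3 of the 8 (IGF1R, IRS1 and IGFBP4) were called lower and 3 (IGFBP5, STC1 and PIB5PA) higher, against 2.95% and 3.32% of all probes, and the median of the list was 0.51 against 0.0001 over all probes and -0.32 over named probes.

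Among the binding proteins, IGFBP4, which holds IGFs away from the receptor, was lower already on day 1. Its brighter probe gave -2.24 ± 0.10 (SD, n = 4; limma, adjusted p = 0.00128) on day 1, where 3.59% of probes were called lower, and -2.48 ± 1.04 (n = 2; adjusted p = 0.00418) on day 14, and a second probe gave -2.32 and -2.52. IGFBP5, another binding protein, stood at 0.55 ± 0.58 (SD, n = 4) on day 1 without passing the test (limma, adjusted p = 0.382) and was higher on day 14, at 2.56 ± 0.41 (n = 2; adjusted p = 0.00361), with 2.23 and 2.61 in its other probes. IGFBP7, a binding protein of low affinity for IGFs, read 0.72 ± 0.49 on day 14 and was not called (limma, adjusted p = 0.164). On day 1, when IGFBP4 was called lower, IGF1R (-0.17) and IRS1 (-0.12 and 0.06) were not called.

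Of the others, STC1, stanniocalcin, which inhibits the protease that cleaves IGFBP4, was above the pool in every tumor: it read 0.80, 0.98, 0.84 and 0.91 on days 1, 2, 4 and 7 without passing the test (limma, adjusted p = 0.0511 on day 1) and 1.17 ± 0.65 (SD, n = 2) on day 14, where it passed (adjusted p = 0.0418). PIB5PA, a phosphatase that removes the 5-phosphate of the lipid made by PI3-kinase, read 0.16 ± 0.19 on day 1 and 0.80 ± 0.01 (SD, n = 2) on day 14 (adjusted p = 0.00303). TRIB2, a tribbles pseudokinase, was higher on day 1, where 3.01% of probes were called higher, at 0.65 ± 0.34 (SD, n = 4; limma, adjusted p = 0.0193) and read 0.31 on day 14.

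**Figure D5:**
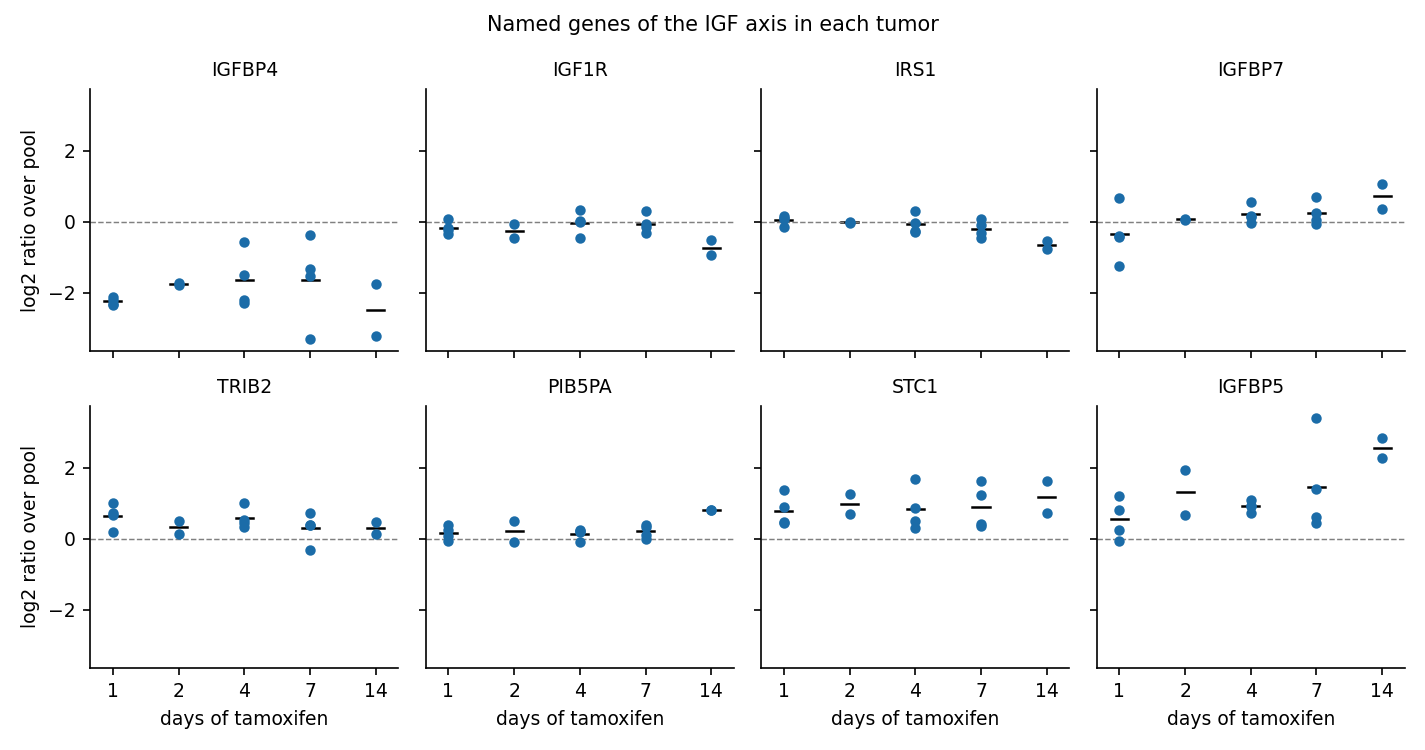
Log2 ratio over the pool (vertical axis) against days of tamoxifen (horizontal axis) for the 8 named genes of the insulin and IGF signalling list, each by its brightest probe (796284_A for IRS1); points are tumors and bars are means of each day. IGFBP4 is low from day 1, IGF1R and IRS1 drop on day 14, and IGFBP5, STC1 and PIB5PA are above the pool on day 14.

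The fall of IGF1R was not shared by all growth factor receptors with a named probe. Of 34 receptor tyrosine kinases, ligands and adaptors on a list, 8 were named, each chosen by the study for a change on these arrays, and on day 14 2 were called lower and 4 higher, against 2.95% and 3.32% of all probes. GFRA1 read -2.53 ± 0.26 (SD, n = 2; limma, adjusted p = 7.6e-05) and AREG, a ligand of the EGF receptor, -1.09 ± 0.14 (adjusted p = 0.00524). In contrast GRB7, an adaptor that binds activated receptors, read 0.70 ± 0.06 (adjusted p = 0.00876) and DDR1, a collagen receptor, 0.53 ± 0.02 (adjusted p = 0.00956). ERBB3, which signals through PI3-kinase as IRS1 does, read 0.69 (adjusted p = 0.00999), and ERBB2 read 0.49 ± 0.39 and was not called (adjusted p = 0.127). ERBB2 was called higher on day 1 (0.81 ± 0.18, SD, n = 4; limma, adjusted p = 0.00167) and day 4 (0.55 ± 0.42; adjusted p = 0.0488), and read 0.49 on day 2 and 0.39 on day 7, not called.

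Of 21 known estrogen-regulated genes, 14 carried a named probe and 13 of them were called lower on day 14 (2.95% of all probes), with a median of -1.58; IGFBP4 and AREG are also on the lists above. Their median was already -0.57 on day 1, when 7 of 14 were called lower (3.59% of all probes), while IGF1R read -0.17 and the IRS1 probes -0.12 and 0.06. Markers of cell types moved as well on day 14: of 9 luminal epithelial markers 3 were named and read from 0.49 (CLDN4) to 1.24 (CD24), 2 of them called higher (3.32% of all probes), and of 9 fibroblast and matrix markers 4 were named and read from -1.15 (MGP) to 0.72 (IGFBP7), 3 of them called lower (2.95% of all probes). Every named probe on these lists was chosen by the study for a change on these arrays, so nothing is read from these shares. IGFBP7 is also on the IGF list, and ESR1, GATA3 and the keratins carried no named probe, so the luminal identity of the line was not checked on them. The only named erythroid marker, HBG1, read -1.11 and was not called, and no adipocyte marker was named. The tumor line is human and the host a mouse, and whether these markers read tumor cells or host cells was not tested. The part of any of these genes in the values of IGF1R and IRS1 was not tested either.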

How the data were processed

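For each of 32 cDNA arrays of 2 colours the authors deposited the scanned intensity of every spot and of its surroundings in both channels, uncorrected and not normalized. The log2 values of the authors' table had been background-corrected, loess- and quantile-normalized with limma, per the methods, and served as an alternative only. Gene names came from the study's list of named probes, and gene positions and promoters from RefSeq (GRCh38.p14). An upstream genome build is not given in the sources used here.

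Intensities were background-corrected (normexp, offset 50), spots with the scanner's ignore mark 0 (1 to 393 per array) left out, and ratios loess-normalized within and quantile-normalized between arrays (limma 3.58.1, run in R 4.3.3; the random block used statmod 1.5.0). Dye-swap ratios were turned in sign and averaged per tumor. One mean per day was fitted over all 16 tumors with the mouse as a random block (correlation 0.0206), so that the days with 2 tumors shared the spread of the others; p-values were adjusted by Benjamini-Hochberg over 9912 probes and called under 0.05. The code was tested on simulated data. Figures and motif searches used Python 3.11.15 and matplotlib 3.10.9.

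The members and gene lists were chosen with earlier results of these data known. Besides the members, the text names each named gene of the insulin and IGF list, up to 4 of the receptor list with the smallest adjusted p on day 14 (ERBB3 and ERBB2 were added after their values were seen), and for each member gene the 5 highest and 2 lowest correlations. The examples of the clustered group, of the estrogen-regulated genes and of the cell type markers were chosen after their values were seen. Nothing in the labels says that replicates come from separate passages, and tumors of 1 mouse are not independent animals. Alternatives were the background correction, normalization, marks, a filter on dim probes, the block, single orientations, single days (fitted without the mouse block, whose correlation could not be estimated within a day), array weights, the authors' table, and leaving out each tumor. The fit on single arrays with a dye term, and the authors' table without the forward column of day 7 replicate 4, were added after seeing the data. That column followed its array least of all (r = 0.217). Other columns also followed their arrays loosely, such as the dye-swap columns of day 2 replicate 1 (0.332) and day 4 replicate 5 (0.522), and were kept.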

Additional observations from a re-analysis of the deposited data

Results flagged for a closer look

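In IRS1 probe 773110_A, day 7 replicate 2 lay far from the other 3 tumors of that day, at a log2 ratio of -0.45 against 0.05 to 0.11. The gap took up 0.894 of the range of the day, above Dixon's 95% critical value for 4 tumors. The other IRS1 probe read -0.31 in the same tumor, within the range of its day, and IGF1R read -0.16. The tumor was also the extreme of its day in other signalling genes, with -3.30 for IGFBP4 against -1.51 to -0.36 in the rest, 3.41 for IGFBP5 against at most 1.396, and -1.72 for GFRA1 against -0.48 to -0.03. Over all probes each of its arrays was most like the array of day 14 replicate 1 in the same orientation (r = 0.512 forward and 0.458 swapped, and 0.831 and 0.790 over the named probes). These r compare ratios before the dye-swap sign is turned, so arrays of one orientation share any dye effect. Most other arrays were also closest to one of their own orientation. Day 7 replicate 4 forward, for example, was closest to day 1 replicate 2 forward (r = 0.579, and 0.772 over the named probes). Nothing is therefore read from this likeness. Without day 7 replicate 2 the day 14 calls of all 3 member probes held. The day 7 group of IRS1 773110_A was the only 1 flagged of 51 groups examined for a stray tumor among the members and the listed signalling genes. IGFBP4, IGFBP5 and GFRA1 were therefore not flagged on day 7. Chance marks about 1 in 20.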

How the results depend on the processing

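The day 14 ratios of the 3 probes stayed below 0 under all 35 alternatives, and so did their differences from the earlier days under the 34 that gave one. The call of IRS1 773110_A was lost without background correction (-0.40), with normexp at an offset of 10 (-0.64), with median centring in place of loess (-0.58), without normalization between arrays or with Aquantile (-0.53 for both, which treat ratios alike), and with the marked spots kept (-0.57). From forward arrays alone all 3 calls were lost (IGF1R -0.71, IRS1 773110_A -0.35, IRS1 796284_A -0.48). Leaving out each tumor in turn gave -0.94 to -0.50 for IGF1R, -0.62 to -0.53 for IRS1 773110_A and -0.77 to -0.54 for IRS1 796284_A, and no probe kept its call with only 1 tumor of day 14, which is then assumed to vary like the others. Without day 14 replicate 1 168 probes of the series were called on day 14, and without replicate 2 30, against 621 with both. The authors' table without the forward column of day 7 replicate 4 left IRS1 796284_A just short of the call (-0.61; limma, adjusted p = 0.0501).

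The replicate number as a fixed block gave -0.75 for IGF1R (limma, adjusted p = 0.0606) and -0.54 for IRS1 773110_A (adjusted p = 0.171), both no longer called, and -0.64 for IRS1 796284_A (adjusted p = 0.0435). Same-numbered tumors of different days deviated together (r over 0.1) in 5 of 24 pairs, and differently numbered ones in 14 of 76. The mean r was 0.010 and -0.003, so these values show no pairing by number.

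The difference between day 14 and the earlier days passed for IGF1R with single arrays and a dye term (-0.58; limma, adjusted p = 0.0435), and for IRS1 796284_A with array weights (-0.58; adjusted p = 0.0276) and with the dye term (-0.58; adjusted p = 0.0331). The dye-term fit counted both orientations of a tumor as observations, with the tumor and not the mouse as random block. It therefore holds more observations than there were tumors. The difference passed for IRS1 773110_A under none. The causes of these changes were not tested, except that leaving out tumors leaves fewer samples. The day 14 values rest on 2 tumors, and some member spots lay only 2.17 times over their background; whether signal limits the calls was not tested.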
